A study of Homo sapiens with 4 samples.

Results

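The nuclear-encoded subunits of the respiratory chain and ATP synthase were described on 4 arrays of human proximal tubular cells (HPTCs). Members were chosen by gene name alone, as names on the array that begin like subunits of complex I (NDUF), complex II (SDH), complex III (UQCR), complex IV (COX) and ATP synthase (ATP5). This pattern matched 86 names. NDUFA6-AS1, NDUFB2-AS1 and UQCRBP1 were left out as antisense or pseudogene, which left 83 members among the 25992 gene names of the array. The members were read by 107 probes on 152 spots. The pattern also takes in 8 isoforms or paralogs and 2 genes, ATP5S and ATP5SL, whose current symbols DMAC2L and DMAC2 no longer place them among the subunits. It leaves out subunits with other names, such as NDUFAB1, COX4I1 and CYC1.

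HK-2 is a tubular line that grows without limit through the papillomavirus genes E6 and E7, and RPTEC/TERT1 is one that does so through added telomerase (TERT). Both were grown to confluence, kept without serum and supplements for 24 h, and treated over the next 24 h with the cytokine IL-1β at 10 ng/mL plus empagliflozin (Empa), an inhibitor of the glucose transporter SGLT2, at 500 nM. Their growth media differed, with fetal bovine serum for HK-2 and a defined medium with insulin, transferrin, selenite and hydrocortisone for RPTEC/TERT1. Each line has 2 arrays, given as biological duplicates, and arrays of other treatments (no stimulus, or IL-1β alone) are not analysed here. Hence no effect of IL-1β or of Empa can be read from these values. The comparison that the labels allow is that of the cell lines under the same stimulation.

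The respiratory chain sits in the inner mitochondrial membrane and passes electrons from NADH and succinate to oxygen, pumping protons at complexes I, III and IV. ATP synthase lets the protons back and makes ATP. Most subunits are encoded in the nucleus and a few in mitochondrial DNA, so each complex other than complex II needs both genomes, and proximal tubular cells, which reabsorb most of the filtrate, depend on this ATP for transport.

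Short motifs were looked up before the starts of the member genes, because the factors that bind them, NRF1, GABPA (the DNA-binding subunit of NRF2) and YY1, are known regulators of nuclear genes of the respiratory chain. RefSeq promoters of GRCh38.p14, from 250 bases before to 50 bases after the start, matched 68 of the 83 members by current symbol. On either strand, the NRF1 motif GCGCANGCG, with any base at N, was in 21 of these 68 (30.9%) and in 8.05% of all 27305 promoters. CCGGAAGT, the GABPA motif, was in 9 (13.2%) against 4.44%, and the YY1 motif AAGATGGCG was in 8 (11.8%) against 1.85%. Matches to 1 motif that overlap each other were counted once. The promoters of 6 members held more than 1 of the 3 motifs and 36 held none. A match is a description of letters and was not tested as a binding site. The stretches shown are the 250 bases before the start, 5′ to 3′ on the plus strand, with matches in capitals. They are those of SDHA, the only member promoter with 4 or more NRF1 matches, of NDUFB4, a complex I member whose values ran against those of most members, and of COX5B, a complex IV member that differed widely between the RPTEC/TERT1 arrays, both chosen after their values were seen. The NRF1 motif is in capitals for SDHA (chr5:218070-218319) and NDUFB4 (chr3:120596086-120596335), and the GABPA motif for COX5B (chr2:97645812-97646061).
SDHA: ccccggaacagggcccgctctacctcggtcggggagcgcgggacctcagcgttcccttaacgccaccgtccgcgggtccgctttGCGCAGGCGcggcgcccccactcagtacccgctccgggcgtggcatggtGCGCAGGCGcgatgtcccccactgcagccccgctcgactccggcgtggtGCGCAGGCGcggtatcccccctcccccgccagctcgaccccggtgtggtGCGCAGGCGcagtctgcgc
NDUFB4: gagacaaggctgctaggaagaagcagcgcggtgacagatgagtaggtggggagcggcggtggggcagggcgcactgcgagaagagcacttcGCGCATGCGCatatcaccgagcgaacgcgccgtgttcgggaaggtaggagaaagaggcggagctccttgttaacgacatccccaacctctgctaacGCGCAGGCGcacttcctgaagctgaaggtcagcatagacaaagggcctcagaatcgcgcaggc
COX5B: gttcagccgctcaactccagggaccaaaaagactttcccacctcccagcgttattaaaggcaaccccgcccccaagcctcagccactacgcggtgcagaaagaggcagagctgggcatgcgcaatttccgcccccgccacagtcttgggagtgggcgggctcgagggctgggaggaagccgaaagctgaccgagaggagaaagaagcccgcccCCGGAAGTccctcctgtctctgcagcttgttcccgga
SDHA carries 4 copies of the NRF1 motif in this stretch and NDUFB4 carries 2, while COX5B carries 1 GABPA motif. Neither SDHA nor NDUFB4 had a GABPA or YY1 match, and COX5B had no NRF1 or YY1 match, so that the matches shown do not overlap a match to another motif. NDUFB4 and COX5B each have another match to the same motif across the start, outside the capitals.

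The level of a gene is the log2 of its processed signal over the 75th percentile of its array, so that 0 is the brightness of that percentile and the floor is -5.37. Levels of different genes come from different probes and are compared here only across arrays. They are relative to the other RNA of the same culture, in which fewer cells of a kind and less RNA per cell cannot be told apart. The 75th percentile was 393 to 748 over the arrays, 59.2% to 64.9% of the spots were well above background, and 56 to 217 spots were saturated. Spots marked as outliers, 1.24% to 1.85% of each array, were left out. Replicate 1 of both lines shares a scan date and so does replicate 2, and each array has a slide of its own. Members spotted 10 times (ATP5SL, COX7C, NDUFS5, NDUFS6 and UQCRC2) had an SD of 0.043 to 0.20 between the spots of 1 array.

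The arrays did not group by their labels. Across the 74 members tested, with r1 and r2 for the replicate numbers of the labels, HK-2 r1 correlated with RPTEC/TERT1 r2 at r = 0.995 and HK-2 r2 with RPTEC/TERT1 r1 at r = 0.978. The 2 arrays labelled HK-2 correlated at r = 0.949 and those labelled RPTEC/TERT1 at r = 0.946. These correlations are across genes of 4 single arrays, a description with n = 74 members that share each array. Over all 16468 genes tested the crossed pairs correlated at r = 0.983 and 0.975, the HK-2 arrays at 0.847 and the RPTEC/TERT1 arrays at 0.833. Whether 2 arrays carry exchanged labels was not tested, and each difference between the lines is one between the arrays labelled so. Of 13 proximal tubule markers, 7 were well above background on all 4 arrays, among them LRP2, PAX8 and SLC5A2, and the defining markers CUBN and HNF4A were so on none. The summed level of the 13 was 4.82 and 3.03 on the HK-2 arrays and 3.70 and 4.49 on the RPTEC/TERT1 arrays, in the order of the replicates. ANPEP, the brush border aminopeptidase N, was at 0.49 on HK-2 r1 and 0.47 on RPTEC/TERT1 r2 and at the floor on the other arrays. CDH6, a cadherin of the proximal tubule, ran the other way, at -3.26 and 0.27 on HK-2 and at 0.86 and -3.49 on RPTEC/TERT1, and LRP2, the endocytic receptor megalin, was highest on HK-2 r2 at -1.72. Of the 5 fibroblast and mesangium markers, COL1A2, COL3A1 and PDGFRB were well above background on none, and the summed level was -2.95 and -0.37 on HK-2 and -0.58 and -2.98 on RPTEC/TERT1. Between arrays this sum varies mainly through 1 marker, so it does not describe the 5 as a set. The leukocyte markers PTPRC, CD14 and CD79A were well above background on all 4 arrays and CD3E on 1, with sums of 1.65 and 1.09 on HK-2 and 0.42 and 2.16 on RPTEC/TERT1. These sums are mostly CD79A, at 1.54 and 0.86 on HK-2 and at -0.0034 and 2.10 on RPTEC/TERT1. On RPTEC/TERT1, PTPRC (-3.32 and -4.25) and CD14 (-2.45 and -3.17) were dim and ran the other way. Of the 7 markers of the loop, distal tubule and collecting duct, SLC12A3, CALB1, AQP2, SCNN1B and SCNN1G were well above background on none, and the sum was -0.076 and -1.78 on HK-2 and -1.78 and 0.29 on RPTEC/TERT1. Within it SLC12A1, the sodium-potassium-chloride cotransporter of the loop, was at -0.51 on HK-2 r1, -0.098 on RPTEC/TERT1 r2 and the floor on the other arrays. All 3 podocyte markers were well above background on all 4 arrays, with sums of -0.18 and -0.16 on HK-2 and -0.15 and -1.16 on RPTEC/TERT1. Of the 4 endothelial markers, VWF and KDR were well above background on none, and the sums were -1.34 and -1.90 on HK-2 and -2.35 and -1.98 on RPTEC/TERT1. Their part in the results on the members was not tested. Results are given for both lines together, within each line and within each replicate number.

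Of the 83 members, 78 had a value on all 4 arrays and 74 entered the test, for which a gene had to be well above background on at least 2 arrays. All 74 were well above background on all 4. The other 5 members, COX6C, NDUFA4, NDUFA7, NDUFB2 and NDUFC1, had a spot marked as an outlier on at least 1 array. The muscle isoform COX7A1, the testis isoforms COX7B2 and COX8C, and NDUFA4L2, a paralog of NDUFA4 known as a target of hypoxia-inducible factor, were measured and not tested. COX7A1, COX7B2 and COX8C were at the floor on all 4 arrays and well above background on none. NDUFA4L2 was well above background on RPTEC/TERT1 r1 only, at -4.16, and stood at -5.32 or at the floor on the other arrays.

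Between the labelled cell lines, the subunits did not differ beyond the spread between arrays. The limma test, two-sided with Benjamini-Hochberg adjustment over 16468 genes, called 0 of the 74 members at an adjusted p under 0.05, where it called 0% of all genes tested. At an unadjusted p under 0.05 it gave 0 members and 23 genes in all (0.14% of those tested). The difference HK-2 minus RPTEC/TERT1 ran from -0.48 for ATP5B to 0.39 for COX6A2 on the log2 scale, with a median of 0.073 against 0.017 over all genes. It was above 0 for 58 of the 74, and for 8852 of all 16468 genes tested. The sign of the member median depends on the processing, with -0.40 after normexp background correction and -0.030 in the deposited log2 values. The 95% confidence intervals reached 1.17 to 2.80 log2 units to either side, with a median of 1.47. These intervals are of single genes, without adjustment, so they do not give the size that the adjusted test could call. Over all genes the differences ran from -2.83 to 2.51, and none was called with 2 arrays per line. The arrays of the 2 labels overlapped for all 74 members, against no overlap for 7.17% of all genes, 4.36% with both HK-2 arrays higher and 2.81% with both lower.

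**Figure D1:**
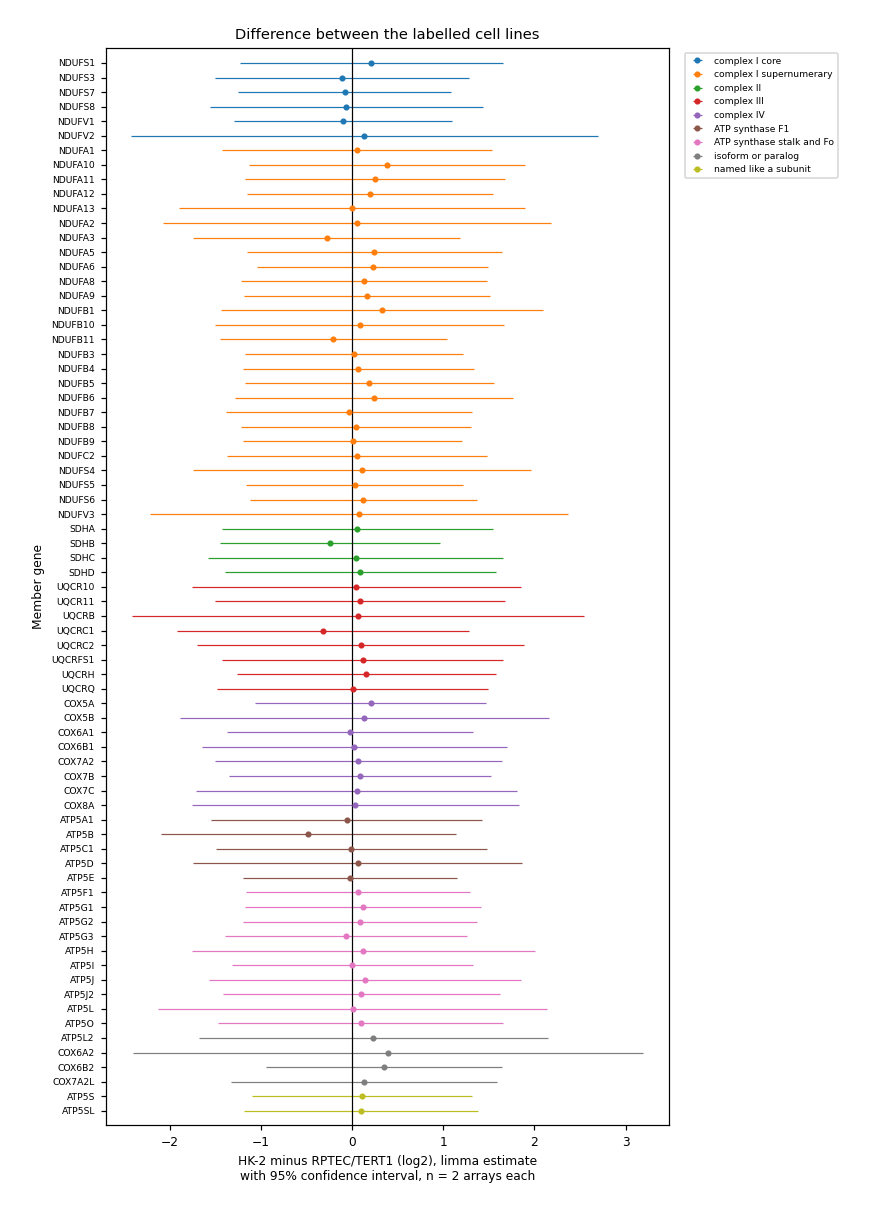
Difference in level between the labelled cell lines, HK-2 minus RPTEC/TERT1 (log2, x axis), for 73 of the 74 members tested (y axis, coloured by role), as the limma estimate with its 95% confidence interval from 2 arrays per line. Every interval spans 0, and the estimates lie between -0.48 and 0.39.

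Within a replicate number the lines differed in opposite directions. The median over members was 0.66 within replicate 1, with 63 of 74 higher on the array labelled HK-2 (54.6% of all genes), and -0.55 within replicate 2, with 13 of 74 higher on HK-2 (46.4% of all genes). The median within replicate 1 turned to -0.34 after normexp background correction, which 8 spots of bright background on HK-2 r1 alter, and was 0.60 when those spots were left out of the correction. In the deposited log2 values it was 0.29, against 0.69 over all genes. The median within replicate 2 was -0.22 after quantile normalization, with 26 of 74 higher on HK-2, and -0.38 in the deposited log2 values. None of the 8 is a member spot. Each of these values sets 1 array against 1 array.

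The widest shift of the subunits lay between the 2 arrays labelled RPTEC/TERT1. Replicate 2 was higher than replicate 1 for 65 of 74 members (53.2% of all genes), with a median of -0.78 for replicate 1 minus replicate 2 against -0.092 over all genes. This median lay between -0.49 and -0.84 under the other ways of processing. Between the arrays labelled HK-2, replicate 1 was higher for 56 of 74 (52.6% of all genes), with a median of 0.28 against 0.062. That direction depends on the background correction, and the median was -0.76 after normexp correction and -0.16 in the log2 values that the authors deposited. After normexp correction without the 8 bright spots it was 0.21, below the 0.26 over all genes, so that the members then did not lie above the other genes. The median level over the 74 members was 4.12 on HK-2 r1, 3.65 on HK-2 r2, 3.19 on RPTEC/TERT1 r1 and 4.28 on RPTEC/TERT1 r2.

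Both shifts together, higher on HK-2 r1 than on HK-2 r2 and on RPTEC/TERT1 r2 than on RPTEC/TERT1 r1, were seen for 53 of 74 members (40.8% of all genes). The opposite pattern held for 6 of 74 (34.7% of all genes). Another 3 were higher on replicate 1 in both lines (11.6% of all genes), namely ATP5B, SDHB and, only as a mean of 2 probes of which neither had that order, ATP5E, and 12 were lower on replicate 1 in both (12.3% of all genes). After normexp correction ATP5B, SDHB and ATP5E were no longer higher on replicate 1 in both lines. The count of 53 was 40 after quantile normalization (39.7% of all genes), 10 after normexp correction (44.4%), 48 after normexp correction fitted without the 8 bright spots (49.1%) and 31 in the log2 table that the authors deposited (45.6%). The median absolute difference of the members was 0.23 between HK-2 r1 and RPTEC/TERT1 r2 and 0.35 between HK-2 r2 and RPTEC/TERT1 r1. It was 0.40 between the HK-2 arrays and 0.82 between the RPTEC/TERT1 arrays, against 0.67 and 0.79 over all genes.

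**Figure D2:**
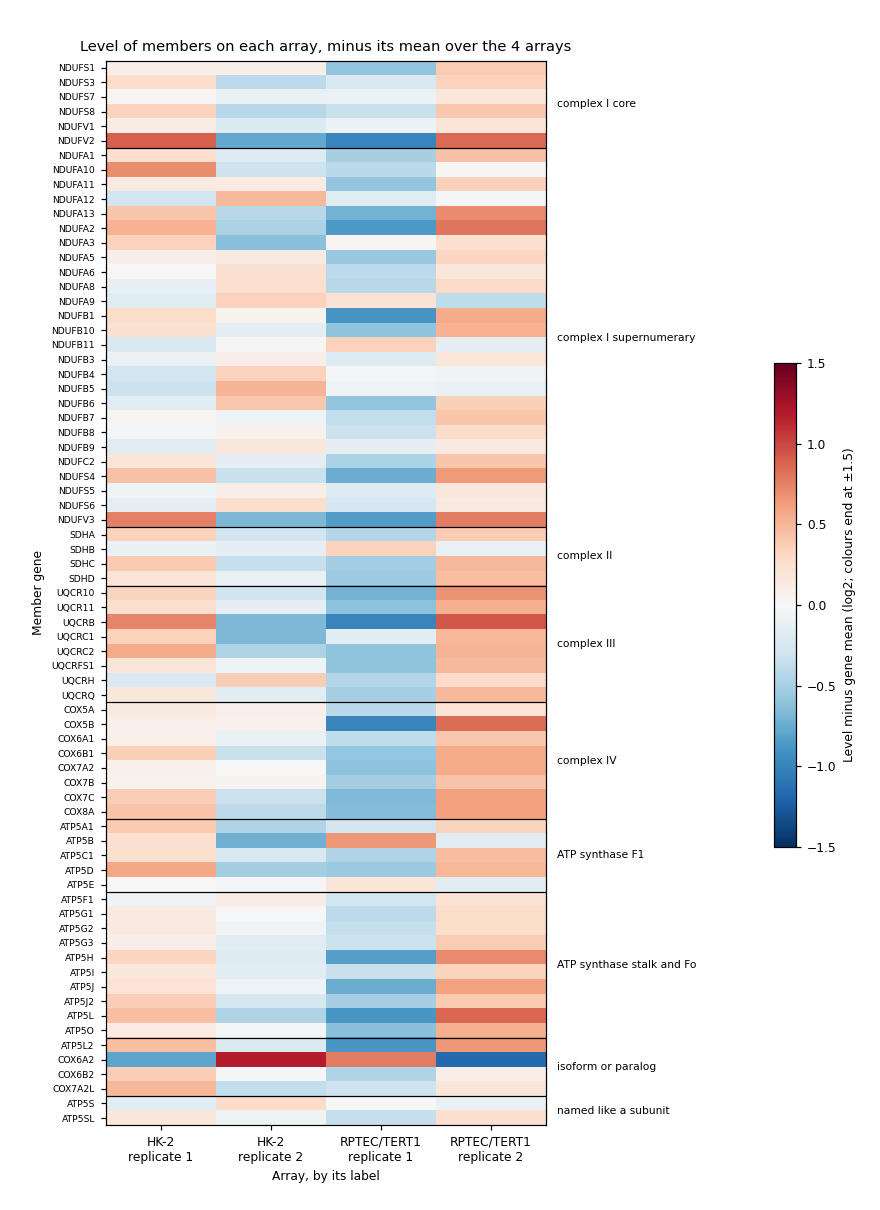
Level of 73 tested members on each of the 4 arrays (columns) minus its mean over the arrays (log2, colour from blue, lower, to red, higher), with members in rows grouped by role. Most rows are red on RPTEC/TERT1 r2 and blue on RPTEC/TERT1 r1, paler on the HK-2 arrays, whose direction turns after normexp correction and in the deposited log2 values, and COX6A2 runs the opposite way.

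Complex I takes electrons from NADH through core subunits that carry its flavin and iron-sulfur clusters. All 7 nuclear core members were higher on HK-2 r1 than on HK-2 r2 and on RPTEC/TERT1 r2 than on RPTEC/TERT1 r1, with medians of replicate 1 minus replicate 2 of 0.32 and -0.57. For NDUFS1 the HK-2 step was 0.00085, below the lowest SD between spots of 0.043, so its HK-2 arrays were level. After normexp correction the HK-2 median was -0.49 and 1 of 7 followed both shifts. NDUFV2, an iron-sulfur subunit of the NADH-binding module, read on chromosome 18 of GRCh37 from 9122594 to 9122653, was at 4.65 and 2.99 on HK-2 and at 2.77 and 4.60 on RPTEC/TERT1, with r1 before r2 here and for the other members. Its 2 lower arrays carry different labels, and the lines overlapped fully. The difference between the lines was 0.13 (standard error 0.95, Benjamini-Hochberg adjusted p = 1, limma). NDUFS1, the largest iron-sulfur subunit of the module, had the largest difference between the lines in this group. It was at 3.115 and 3.114 on HK-2 and at 2.42 and 3.39 on RPTEC/TERT1, a difference of 0.21 with a 95% interval from -1.24 to 1.66, and RPTEC/TERT1 r1 alone stood low. Without that array the difference was -0.27. NDUFS7, another iron-sulfur subunit, spanned 0.28 over the 4 arrays, less than NDUFV2 at 1.88.

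The supernumerary subunits surround the core and are needed for its assembly and stability. Of 29 such members 26 were tested, and they were the most mixed group. Both shifts were followed by 12 of 26 (40.8% of all genes), near the share of all genes. On RPTEC/TERT1 r2, 22 of 26 were higher than on RPTEC/TERT1 r1 (53.2% of all genes). Lower on replicate 1 in both lines were 10 of 26 (12.3% of all genes). The HK-2 median of the 26 was -0.059, and -1.18 after normexp correction. NDUFV3, a subunit of the NADH-binding module, moved like NDUFV2, at 2.95 and 1.52 on HK-2 and at 1.36 and 2.96 on RPTEC/TERT1. NDUFA2, at 4.32 and 3.32 against 2.93 and 4.60, and NDUFS4, at 3.22 and 2.45 against 2.04 and 3.43, had the same order of arrays at the extremes, RPTEC/TERT1 r2 highest and replicate 1 lowest. NDUFB5 and NDUFB4, membrane-arm subunits chosen after their values were seen, did not follow. The level of NDUFB5 was 0.74 and 1.57 on HK-2 and 0.99 and 0.95 on RPTEC/TERT1, so that HK-2 r2 alone was high. That of NDUFB4, whose promoter is printed above, was 5.00 and 5.62 on HK-2 and 5.26 and 5.22 on RPTEC/TERT1. NDUFA10 had the largest difference between the lines, 0.38 (standard error 0.56, Benjamini-Hochberg adjusted p = 1, limma), and 1 of its 3 probes decided it. That probe was at -0.39 on HK-2 r1 and at -2.42, -2.37 and -2.18 on the other arrays, and without HK-2 r1 the difference was -0.12. With the brightest probe it was 0.033. With outlier spots kept, NDUFC1 was at 5.26 and 4.62 on HK-2 and at 4.18 and 5.66 on RPTEC/TERT1, and NDUFA7 and NDUFB2 also had their highest level on RPTEC/TERT1 r2 and their lowest on RPTEC/TERT1 r1.

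Complex II, or succinate dehydrogenase, also belongs to the tricarboxylic acid cycle and is encoded in the nucleus alone. The HK-2 median of its 4 members was 0.47, and -0.23 after normexp correction. SDHA, the flavoprotein that oxidises succinate, was at 2.24 and 1.60 on HK-2 and at 1.45 and 2.27 on RPTEC/TERT1. Its 4 probes each had their 2 higher levels on HK-2 r1 and RPTEC/TERT1 r2. SDHC, a membrane anchor with the ubiquinone site, was at 1.08 and 0.34 on HK-2 and at 0.17 and 1.17 on RPTEC/TERT1. The 3 probes of SDHC differed in sign between the RPTEC/TERT1 arrays, with 0.30 and 0.093 for the probe on chromosome 1 of GRCh37 from 161326492 to 161326551 and -2.44 and -0.47 for that from 161334471 to 161334530. SDHD, the other anchor, was at 0.99 and 0.70 on HK-2 and at 0.26 and 1.25 on RPTEC/TERT1. SDHB, the iron-sulfur subunit, was the exception. It was at 2.64 and 2.59 on HK-2 and at 3.08 and 2.63 on RPTEC/TERT1, so that RPTEC/TERT1 r1, the lowest array for SDHA, SDHC and SDHD, was the highest for SDHB. The difference between the lines was -0.24 for SDHB (standard error 0.45, 95% interval from -1.45 to 0.97) and 0.04 to 0.09 for the other members of the complex, with an adjusted p of 1 from limma for each.

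Complex III passes electrons from ubiquinol to cytochrome c. RPTEC/TERT1 r2 was higher than replicate 1 for all 8 members, with a median of -1.10, and 7 of 8 followed both shifts, which were 2 of 8 after normexp correction. For UQCRC2, a core protein, replicate 1 minus replicate 2 was 1.01 on HK-2 and -1.11 on RPTEC/TERT1. UQCRC1, the other core protein, was at 3.33 and 2.31 and at 2.81 and 3.48, with a difference between the lines of -0.32 (standard error 0.59, Benjamini-Hochberg adjusted p = 1, limma). Both core proteins had their lower levels on HK-2 r2 and RPTEC/TERT1 r1, and the difference of UQCRC1 was 0.19 without HK-2 r2 and 0.015 without RPTEC/TERT1 r2. UQCRB, which binds ubiquinone, had the widest spread of the group as the mean of 2 probes, at 0.87, -0.54, -0.86 and 1.07, because the dimmer probe was at the floor on HK-2 r2 and RPTEC/TERT1 r1. Its brighter probe was at 4.44 and 4.30 on HK-2 and at 3.66 and 4.81 on RPTEC/TERT1. UQCRFS1, the Rieske iron-sulfur protein, was at 4.63 and 4.39 on HK-2 and at 3.85 and 4.94 on RPTEC/TERT1. UQCRH, the hinge protein, was the member that did not follow on HK-2, at 5.42 and 6.00.

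**Figure D3:**
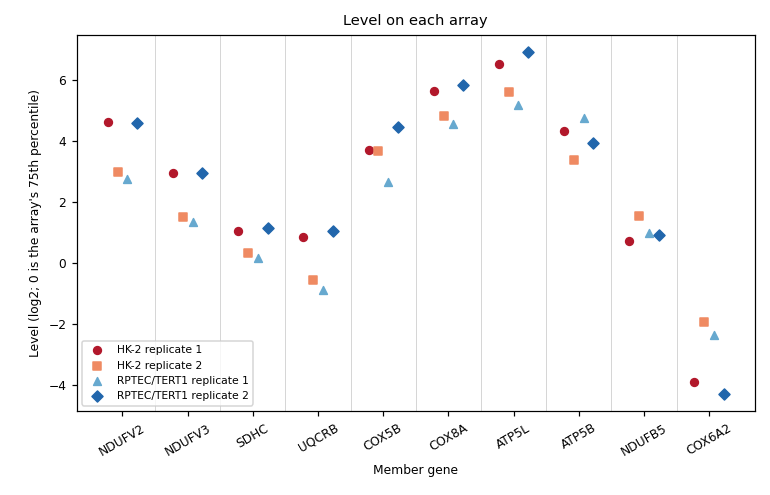
Level on each array (log2, y axis, 0 is the 75th percentile of the array) of 10 members (x axis), with 1 point per array. NDUFV2, NDUFV3, SDHC, UQCRB, COX8A and ATP5L lie higher on HK-2 r1 and RPTEC/TERT1 r2, COX6A2 lies lower there, ATP5B and NDUFB5 have other orders, and COX5B has its HK-2 points close together.

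Complex IV, cytochrome c oxidase, reduces oxygen, and its nuclear subunits surround a core that mitochondrial DNA encodes. All 8 tested members followed both shifts, but the step was small on HK-2, with a median of 0.13, and large on RPTEC/TERT1, with a median of -1.15. The HK-2 step turned to -1.02 after normexp correction, -0.066 after quantile normalization and -0.44 in the deposited log2 values, with 0, 3 and 3 of 8 following both shifts. COX5B, a matrix-side subunit chosen after its values were seen, was at 3.71 and 3.70 on HK-2 and at 2.67 and 4.48 on RPTEC/TERT1. The HK-2 arrays lay between the RPTEC/TERT1 arrays and differed by 0.0074. COX8A was at 5.65 and 4.83 on HK-2 and at 4.58 and 5.84 on RPTEC/TERT1, and COX7C was at 6.32 and 5.63 and at 5.29 and 6.57. COX5A, another matrix-side subunit, had the largest difference between the lines in the complex, 0.20 (standard error 0.47, 95% interval from -1.06 to 1.47, Benjamini-Hochberg adjusted p = 1, limma). It was at 3.77 and 3.72 on HK-2 and at 3.24 and 3.84 on RPTEC/TERT1, with RPTEC/TERT1 r1 low, and without that array the difference was -0.10. NDUFA4, listed by RefSeq as COXFA4 and now counted with complex IV, was at 5.95 and 5.57 on HK-2 and at 5.19 and 6.23 on RPTEC/TERT1 with outlier spots kept. COX6C, read the same way, was at 4.10 and 4.48 on HK-2 and at 3.44 and 4.72 on RPTEC/TERT1, so HK-2 r2 was the higher HK-2 array.

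The isoforms and paralogs that could be tested were ATP5L2, COX6A2, COX6B2 and COX7A2L. COX6A2, the heart and muscle form of a complex IV subunit and read on chromosome 16 of GRCh37 from 31439092 to 31439151, ran the opposite way to most members. It was dim, at -3.90 and -1.93 on HK-2 and at -2.33 and -4.27 on RPTEC/TERT1, and its range of 2.35 over the arrays was the widest of the 74 members. For the ubiquitous form COX6A1, replicate 1 minus replicate 2 was 0.17 on HK-2 and -0.78 on RPTEC/TERT1, where COX6A2 had -1.97 and 1.94. The difference between the lines was 0.39 for COX6A2 (standard error 1.03, 95% interval from -2.41 to 3.19, Benjamini-Hochberg adjusted p = 1, limma), and it was -0.59 without HK-2 r2, -0.58 without RPTEC/TERT1 r2, 1.38 without HK-2 r1 and 1.36 without RPTEC/TERT1 r1. COX7A2L, which helps complexes III and IV to join into supercomplexes, was at 1.04 and 0.18 on HK-2 and at 0.23 and 0.72 on RPTEC/TERT1. The probes of the testis isoform COX6B2 disagreed. The brighter was at 3.13 and 2.02 on HK-2 and at 1.82 and 3.39 on RPTEC/TERT1, and the dimmer was at -2.58 and -2.26 and at -2.93 and -3.38. ATP5L2 is a near copy of ATP5L, so that its level, 4.96 and 4.29 on HK-2 and 3.63 and 5.16 on RPTEC/TERT1, is uncertain.

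ATP synthase couples a catalytic F1 head in the matrix to a proton channel, Fo, in the membrane. ATP5B, the catalytic beta subunit (ATP5F1B in RefSeq), had the largest difference between the lines of all 74 members, -0.48 (standard error 0.60, 95% interval from -2.10 to 1.14, unadjusted p = 0.462 and Benjamini-Hochberg adjusted p = 1, limma). This p was the smallest among the members. Read on chromosome 12 of GRCh37 from 57036253 to 57036312, it was at 4.34 and 3.40 on HK-2 and at 4.76 and 3.95 on RPTEC/TERT1. Replicate 1 was higher than replicate 2 in both lines, by 0.95 and 0.82, an order that SDHB shared with a step of 0.049 on HK-2. Without HK-2 r2 the difference of ATP5B between the lines was -0.0089. After normexp correction, 0 of the 5 F1 members and 0 of the 4 complex II members were higher on replicate 1 in both lines. ATP5A1, the alpha subunit that forms the head with ATP5B, followed both shifts instead, at 4.85 and 4.00 on HK-2 and at 4.18 and 4.79 on RPTEC/TERT1. The HK-2 median of the 5 F1 members, 0.85, turned to -0.17 after normexp correction. Both shifts were then followed by 1 of 5, against 3 of 5 before. ATP5D, the delta subunit of the central stalk, was at 2.77 and 1.66 on HK-2 and at 1.64 and 2.68 on RPTEC/TERT1. The 2 probes of ATP5E, the epsilon subunit, differed in sign on RPTEC/TERT1. The brighter was at 7.15 and 6.53 on HK-2 and at 6.60 and 7.27 on RPTEC/TERT1. It was saturated on replicate 2 of both lines, so the replicate 2 levels are lower bounds and its order on HK-2 is not known. The dimmer was at -4.04 and -3.48 and at -3.12 and -4.47, so the mean of both probes, 1.56, 1.53, 1.74 and 1.40, hides opposite orders on RPTEC/TERT1.

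Of the stalk and Fo members, 9 of 10 followed both shifts and all 10 were higher on RPTEC/TERT1 r2 than on RPTEC/TERT1 r1. The HK-2 median of this group, 0.28, turned to -0.82 after normexp correction and -0.18 in the deposited log2 values, where 0 and 3 of 10 followed both shifts. ATP5L, subunit g of the membrane part, was at 6.54 and 5.63 on HK-2 and at 5.21 and 6.94 on RPTEC/TERT1, with a difference between the lines of 0.0083 (standard error 0.79). ATP5J, coupling factor 6, had the largest difference between the lines in this group, 0.14 (standard error 0.63, Benjamini-Hochberg adjusted p = 1, limma), at 4.45 and 4.17 on HK-2 and 3.49 and 4.85 on RPTEC/TERT1. Its difference was -0.54 without RPTEC/TERT1 r1 and 0.82 without RPTEC/TERT1 r2. Of the 3 genes that encode the same mature c subunit of the proton ring, ATP5G1 was at 2.56 and 2.42 on HK-2 and at 2.04 and 2.70 on RPTEC/TERT1. ATP5G2 was at 5.24 and 5.04 and at 4.74 and 5.36, and ATP5G3 was at 6.32 and 6.05 and at 5.90 and 6.60. The 3 had the same order of arrays, with steps of 0.14 to 0.27 between the HK-2 arrays and of -0.62 to -0.70 between the RPTEC/TERT1 arrays. ATP5F1, the b subunit of the outer stalk, was the exception on HK-2, at 4.09 and 4.26. ATP5S, named like a subunit, was at -0.26 and 0.18 on HK-2 and at -0.10 and -0.19 on RPTEC/TERT1, with probes that differ in sign, and ATP5SL was at 2.75 and 2.50 and at 2.23 and 2.83.

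Whether members with a motif differ from the others in this pattern was not tested. Both shifts were seen in 15 of 20 tested members with the NRF1 motif, 8 of 9 with the GABPA motif, 4 of 7 with the YY1 motif and 23 of 31 whose promoter held none of the 3, against 40.8% of all genes. These counts are of the pattern that 53 members had with the processed signal, 10 after normexp correction and 31 in the deposited log2 values. SDHA with 4 NRF1 matches followed them and NDUFB4 with the NRF1 motif did not.

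Genes of the same pathway that are not members were also called in 0 cases by limma, with an adjusted p above 0.05 for every gene. The names leave out 6 tested genes, namely the subunits NDUFAB1, COX4I1, CYC1 and USMG5, cytochrome c (CYCS) and the ATP synthase inhibitor ATPIF1. Of these 6, 5 were higher on RPTEC/TERT1 r2 than on RPTEC/TERT1 r1 (53.2% of all genes). Both shifts were followed by 3 (40.8% of all genes), and 2 were lower on replicate 1 in both lines (12.3% of all genes). After normexp correction 0 of the 6 followed both shifts, with an HK-2 median of -0.94. After quantile normalization and in the deposited log2 values 1 of the 6 did so. COX4I1, a regulatory subunit of complex IV, was at 4.96 and 4.38 on HK-2 and at 4.14 and 4.92 on RPTEC/TERT1, and CYC1, cytochrome c1, was at 2.27 and 1.97 and at 2.31 and 2.22.

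The 11 tested subunits encoded in mitochondrial DNA had another order of arrays. The median of replicate 1 minus replicate 2 was 1.34 on HK-2, with 10 of 11 higher on replicate 1, and 0.21 on RPTEC/TERT1. Under the other ways of normalizing and correcting the background the HK-2 median kept its sign, but after normexp correction it was 0.24, below the 0.99 over all genes. The RPTEC/TERT1 median was 0.77 after quantile normalization. Higher on replicate 1 in both lines were 7 of 11, where 3 of 74 nuclear members and 11.6% of all genes had that order. ND4, a proton-pumping subunit of complex I, was at 6.23 and 4.10 on HK-2 and at 6.07 and 4.87 on RPTEC/TERT1. COX2, which takes electrons from cytochrome c, was at 6.93 and 5.59 and at 6.62 and 6.12, and ATP6, the channel subunit of ATP synthase, was at 7.03 and 5.85 and at 6.61 and 6.40. For all 3, HK-2 r2 was the lowest array. ND6, whose gene lies on the opposite strand of mitochondrial DNA, ran the other way, at -2.21 and -1.30 on HK-2 and at -0.70 and -2.49 on RPTEC/TERT1. The probe named COX1 is placed by the files on chromosome 1, where the nuclear genome holds copies of mitochondrial DNA, and CYTB was saturated on 1 array. The difference between the lines was below 0 for all 11, with a median of -0.22, and 0 were called. Over all 16468 genes tested it was above 0 for 8852.

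**Figure D4:**
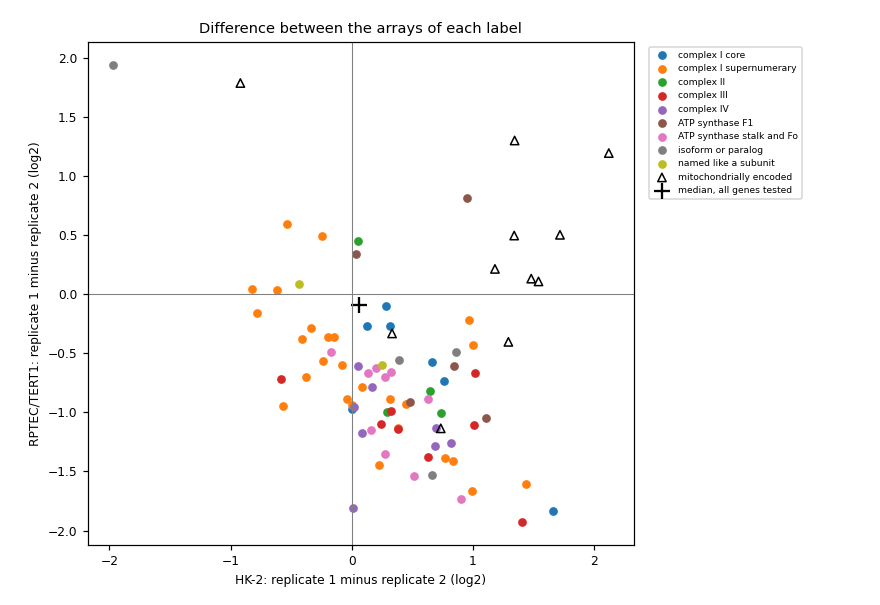
Replicate 1 minus replicate 2 on the arrays labelled HK-2 (log2, x axis) and RPTEC/TERT1 (log2, y axis), with 1 filled point per nuclear member coloured by role, 1 open triangle per mitochondrially encoded subunit, and a cross at the medians over all genes tested. Most nuclear members lie at the lower right, although the median on the x axis turns below 0 after normexp correction and in the deposited log2 values, and 7 of 11 mitochondrially encoded subunits lie at the upper right.

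The 17 tested regulators of mitochondrial biogenesis were lower on HK-2 r1 than on HK-2 r2 and on RPTEC/TERT1 r2 than on RPTEC/TERT1 r1 in 13 cases (34.7% of all genes) and higher on both in 4. After normexp correction 8 of 17 had the first of these patterns, and the HK-2 median turned from -1.02 to 0.24. PPARGC1A, the coactivator PGC-1α, was among the 4, at -0.74 and -3.62 on HK-2 and at -3.51 and -1.24 on RPTEC/TERT1. ESRRA, a nuclear receptor that it coactivates, was at 1.63 and 0.20 and at 0.41 and 1.49. TFAM, the packaging and transcription factor of mitochondrial DNA, had the opposite order, at -1.01 and 1.40 on HK-2 and at 0.70 and -0.50 on RPTEC/TERT1, as had NRIP1, a corepressor, at -0.081 and 2.11 and at 2.55 and -0.64. Assembly factors did not lean one way, with both shifts in 4 of 11 for complex I and in 11 of 30 for complexes II to V. A list of 20 tested genes joined the tricarboxylic acid cycle with pyruvate dehydrogenase (PDHB, DLAT) and its kinases (PDK1 to PDK4). Of these 20, 8 had both shifts and 8 the opposite pattern. None of these genes passed the adjusted test between the cell lines.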

How the data were processed

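Gene expression was measured with Cy3-labelled RNA on 1-colour Agilent arrays. The intensities that the authors deposited come from the software Agilent Feature Extraction 9.5.3.1, and its processed signal, background-subtracted and not scaled between arrays, was used. A table of log2 values that the authors deposited for these spots served as an alternative. How it was made is not stated in the sources, and the paper names no normalization. RNA was isolated with the innuPREP kit by the methods but with the RNeasy kit by the labels.

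Without control and outlier spots, each signal was scaled to the 75th percentile of its array, floored at 0.0242 of it and taken to log2. After averaging the spots of each probe, genes were means over probes with a value on all arrays and well above background on at least 1, or over all probes with a value where a gene had no such probe. Names follow the array design. Of the 83 members, 63 have the same symbol in RefSeq (GRCh38.p14) and 20 a newer one. Probe positions are on GRCh37, and no annotation of that build was used.

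HK-2 and RPTEC/TERT1 were compared with limma 3.58.1 (lmFit and eBayes, R 4.3.3) over 16468 genes, with Benjamini-Hochberg adjustment at 0.05. The step was also run on simulated data with a smaller spread than these arrays have, which does not show what it can detect here. The number of arrays limits the precision. Alternatives were normexp correction with an offset of 50, quantile normalization, the deposited log2 values, other filters on dim, outlier and saturated spots, the brightest probe, the replicate number as a block and leaving out each array. Deviations of same-numbered arrays from the means of their lines had r = -0.61 across the 74 members and -0.81 across all 16468 genes tested. The labels tie the numbers to no shared culture.

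Named members are, for each role, those with the largest difference between the lines and the largest mean difference within a line, all of complex II, the c-subunit genes, NDUFA4, the tissue isoforms, and members below background or saturated. Others named with values were chosen after their values were seen. A member and a marker are counted but not reported singly here. The members, the lists, the motifs and the rule were chosen with earlier results of these data known.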

Additional observations from a re-analysis of the deposited data

Results flagged for a closer look

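The difference between the labelled cell lines ran in opposite directions in the 2 replicates. The median over the 74 members of HK-2 minus RPTEC/TERT1 was 0.66 within replicate 1 and -0.55 within replicate 2, and the difference between these values was not tested.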

How the results depend on the processing

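The alternatives with a crossed block and with normexp correction without the 8 bright spots were chosen after seeing the data. In all alternatives, calls by limma between the lines numbered 0 over all genes and 0 among the members, with 3 to 240 genes at an unadjusted p below 0.05. The replicate block left the calls at 0, with 5 genes at an unadjusted p below 0.05 against 23 in the fit that has no block, and the median member difference at 0.073. Crossing the pairing gave 0 calls and 183 genes at an unadjusted p below 0.05. Normexp correction turned the difference between the lines to -0.34 for ATP5J, -0.27 for COX5A and -0.31 for NDUFS1. It moved SDHB from -0.24 to -0.88 (-0.57 in the deposited log2 values), ATP5B from -0.48 to -0.94, UQCRC1 from -0.32 to -0.76 and COX6A2 from 0.39 to 1.20. Without the 8 bright spots COX6A2 was at 0.14 and SDHB at -0.39, and COX6A2 was at 0.80 in the deposited log2 values. It also turned the median of the members within replicate 1 from 0.66 to -0.34, and that between the HK-2 arrays from 0.28 to -0.76, where the median over all genes was 0.99. In the deposited log2 values the median between the HK-2 arrays was -0.16, against 0.73 over all genes. Fitted without the 8 bright spots, normexp correction gave 0.60 and 0.21, against 0.18 and 0.26 over all genes.

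The median member difference between the lines, 0.073, was -0.030 in the log2 table of the authors, -0.40 with normexp and -0.38 to 0.50 with 1 array left out. With 1 array left out, the lone array of a line is assumed to vary like the others. The difference was then -0.96 to -0.0089 for ATP5B, -0.54 to 0.82 for ATP5J, -0.59 to 1.38 for COX6A2, -0.11 to 0.33 for ATP5S and -0.10 to 0.51 for COX5A. It was -0.12 to 0.88 for NDUFA10, -0.27 to 0.69 for NDUFS1, -0.47 to -0.015 for SDHB and -0.83 to 0.19 for UQCRC1. Signal over background limits NDUFA4L2, well above it on 1 array, and COX7A1, COX7B2 and COX8C, well above it on none.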
